A study of Homo sapiens with 16 samples.

Results

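The hemidesmosome and laminin-332 genes comprised 8 genes, taken from the count table by their symbols: *LAMA3*, *LAMB3*, *ITGA6*, *ITGB4*, *COL17A1*, *DST*, *PLEC* and *CD151*. They were 8 of the 26475 genes in the table, and each passed the filter on low counts in every fit. Their transcripts were counted by RNA-seq in 16 MCF10A libraries, from a human mammary epithelial line that became immortal in culture and forms no tumors, grown in 2D with EGF, insulin, hydrocortisone, cholera toxin and horse serum. The control group (4 libraries) received DMSO and no collagen, and the group with collagen alone (4 libraries) received DMSO and Collagen 1 at 0.05 mg/mL for 24 h. The remaining groups (4 libraries each) received the same collagen together with either DDR1-IN-1 (DDR1i), a kinase inhibitor of the collagen receptor DDR1, or AI-10-104 (RUNXi), an inhibitor that keeps RUNX transcription factors from pairing with CBFβ. Per the methods of the collagen stimulation assay, cells were in DDR1i at 2 µM or AI-10-104 at 5 µM for 48 h in all, with collagen present for the last 24 h. All groups are 1 cell line, and the labels do not say whether replicates came from separate cultures, so that p-values measure the spread between these libraries, which may be technical.

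Hemidesmosomes rivet basal epithelial cells to the basement membrane. Outside the cell lies laminin-332, a trimer of chains, the α3 and β3 chains among them, that basal cells of breast and skin secrete. Its receptor is integrin α6β4, which is joined in the membrane by collagen XVII and the tetraspanin CD151. Inside the cell, the plakins plectin and BPAG1 tie this receptor complex to keratin filaments. In the breast, these junctions are a feature of the basal cell layer, and integrin α6 is widely used as a surface marker for sorting mammary basal and stem cells.

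The basal identity of the line was checked against its markers. *KRT5* had 7084 to 11685.5 CPM (TMM-normalized counts of a gene relative to the total of its library, which corrects for library size and composition) and *TP63* had 47.7 to 75.6 CPM in the 16 libraries. *PGR*, *COL3A1* and *CDH5*, defining markers of hormone-responsive luminal cells, fibroblasts and endothelium, had 0 counts in all libraries, and *ESR1* reached 1.53 CPM. Other luminal markers were present, with 328 to 581 CPM for *KRT18*, 57.4 to 168 for *KRT8* and 10.04 to 19.3 for *GATA3*, and the summed level of the 6 luminal markers was 451 to 605 CPM in the controls, 493 to 694 with collagen alone, 534 to 708 with DDR1i and 482 to 513 with RUNXi. The summed levels of the fibroblast and endothelial markers were at most 6.26 and 2.38 CPM. Of 3 immune markers, *CD68* had 8.53 to 28.8 CPM, while *PTPRC* and *CD3E* had 1 and 2 counts over all libraries. The summed level of 6 basal markers was 16966.5 to 21317.9 CPM in the controls and 17349.9 to 24092 with collagen alone. It was 12133.5 to 16127 CPM with DDR1i and 19528 to 22059 with RUNXi. The part of this lower level with DDR1i in the results that follow was not tested, and in bulk RNA fewer cells of a type and less RNA per cell cannot be told apart. Total counts were 12184619 to 44332378 per library, and the 8 genes had 3587 to 73022 counts each in a library, so that counting error was small against the spread between replicates.

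Promoter sequence is shown for *LAMA3* and *LAMB3*, which encode the α3 and β3 chains and whose levels were the most closely correlated among the 8 genes. The sequences are the 250 bases before annotated transcription starts, from RefSeq (GRCh38.p14), written in the direction of transcription. Of the 8 genes, 5 had such a window of 300 bases (250 before and 50 after the start), with 10 windows in all. Capitals mark matches to TGTGGT or TGCGGT, the core motif of RUNX factors, or to TGANTCA, the motif of AP-1, searched on both strands.
LAMA3, chr18:23872770-23873019, plus strand: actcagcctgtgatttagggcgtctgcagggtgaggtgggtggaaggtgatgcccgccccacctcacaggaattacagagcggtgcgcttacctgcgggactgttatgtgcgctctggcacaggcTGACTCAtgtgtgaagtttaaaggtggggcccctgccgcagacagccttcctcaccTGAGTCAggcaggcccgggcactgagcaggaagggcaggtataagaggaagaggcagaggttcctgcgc
LAMB3 first start, chr1:209652426-209652675, minus strand: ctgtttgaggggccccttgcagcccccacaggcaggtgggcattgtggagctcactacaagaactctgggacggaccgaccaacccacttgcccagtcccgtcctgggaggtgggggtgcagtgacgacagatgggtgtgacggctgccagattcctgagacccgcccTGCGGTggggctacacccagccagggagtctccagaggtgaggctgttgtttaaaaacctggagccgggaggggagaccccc
LAMB3 inner start, chr1:209651375-209651624, minus strand: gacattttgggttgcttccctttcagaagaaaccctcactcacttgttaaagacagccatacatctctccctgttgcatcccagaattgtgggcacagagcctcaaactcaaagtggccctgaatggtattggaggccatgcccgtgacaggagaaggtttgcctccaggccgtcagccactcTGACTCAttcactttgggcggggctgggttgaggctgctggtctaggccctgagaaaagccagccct
The *LAMA3* start lies 183567 bases inside the gene, where a shorter transcript begins, and its window held 2 AP-1 matches, from -125 to -119 and from -69 to -63 relative to the start, and no RUNX match. The first *LAMB3* window held 1 RUNX match, from -82 to -77. The inner one, 1051 bases inside the gene, held 1 AP-1 match, from -67 to -61. Over the 10 windows, a RUNX match was found in 5 (*LAMB3*, *ITGA6* and *DST*) and an AP-1 match in 3 (*LAMA3*, *LAMB3* and *DST*). Among all 35116 promoter windows of the reference, 19.6% held a RUNX match and 7.71% an AP-1 match. The RUNX matches of *LAMB3* and of *ITGA6* were each the same bases in overlapping windows. By gene, 3 of the 5 held a RUNX match and 3 an AP-1 match, against 22.9% and 9.37% of 27305 genes. The 5 genes had 10 windows and the 27305 genes 35116, so that the shares by gene are not like for like. The E-box CANNTG was found in 10 of the 10 windows and in 68.7% of all windows. Windows of 1 gene overlap or lie close together, so that the 10 are not independent, and a match is a description of letters and not of binding.

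The level of each gene was compared per kilobase of its canonical transcript (GENCODE annotation on GRCh37). *LAMB3* (chromosome 1, 209788215 to 209825770) had the highest mean, 335 ± 157 CPM per kb (SD, n = 16), and *CD151* (chromosome 11, 832887 to 839831) had 296 ± 41.0. These neighbours did not differ beyond their spread, as *LAMB3* was above *CD151* in 6 of 16 libraries. *ITGB4* (chromosome 17, 73717408 to 73753899) followed at 158 ± 32.0, *COL17A1* (chromosome 10, 105791044 to 105845638) at 150 ± 35.9 and *ITGA6* (chromosome 2, 173292082 to 173371187) at 136 ± 28.3 CPM per kb. Of these 3, each was above the next in 11 of 16 libraries, within the spread. *PLEC* (chromosome 8, 144989321 to 145050902) had 109.7 ± 36.0 and *LAMA3* (chromosome 18, 21269417 to 21536186) 88.5 ± 39.0 CPM per kb, and *DST* (chromosome 6, 56322785 to 56819628) was below *LAMA3* in 16 of 16 libraries, at 13.2 ± 2.89. These levels and their order depend on the transcript chosen. With the shortest coding transcript (5007 and 8971 bases, against 10651 and 24709 for the canonical ones) the means of *LAMA3* and *DST* were 188 and 36.5 CPM per kb. That of *ITGA6* (3544 bases, against 5816) was 223. *ITGA6* and *LAMA3* were then above *ITGB4* (168), *COL17A1* (150) and *PLEC* (142). *CD151* shares 257 exon bases with *POLR2L* on the opposite strand, and since the use of strand in counting is not stated, its level may include reads of that gene.

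Expression of each gene in the 16 libraries is plotted by group.

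**Figure D1:**
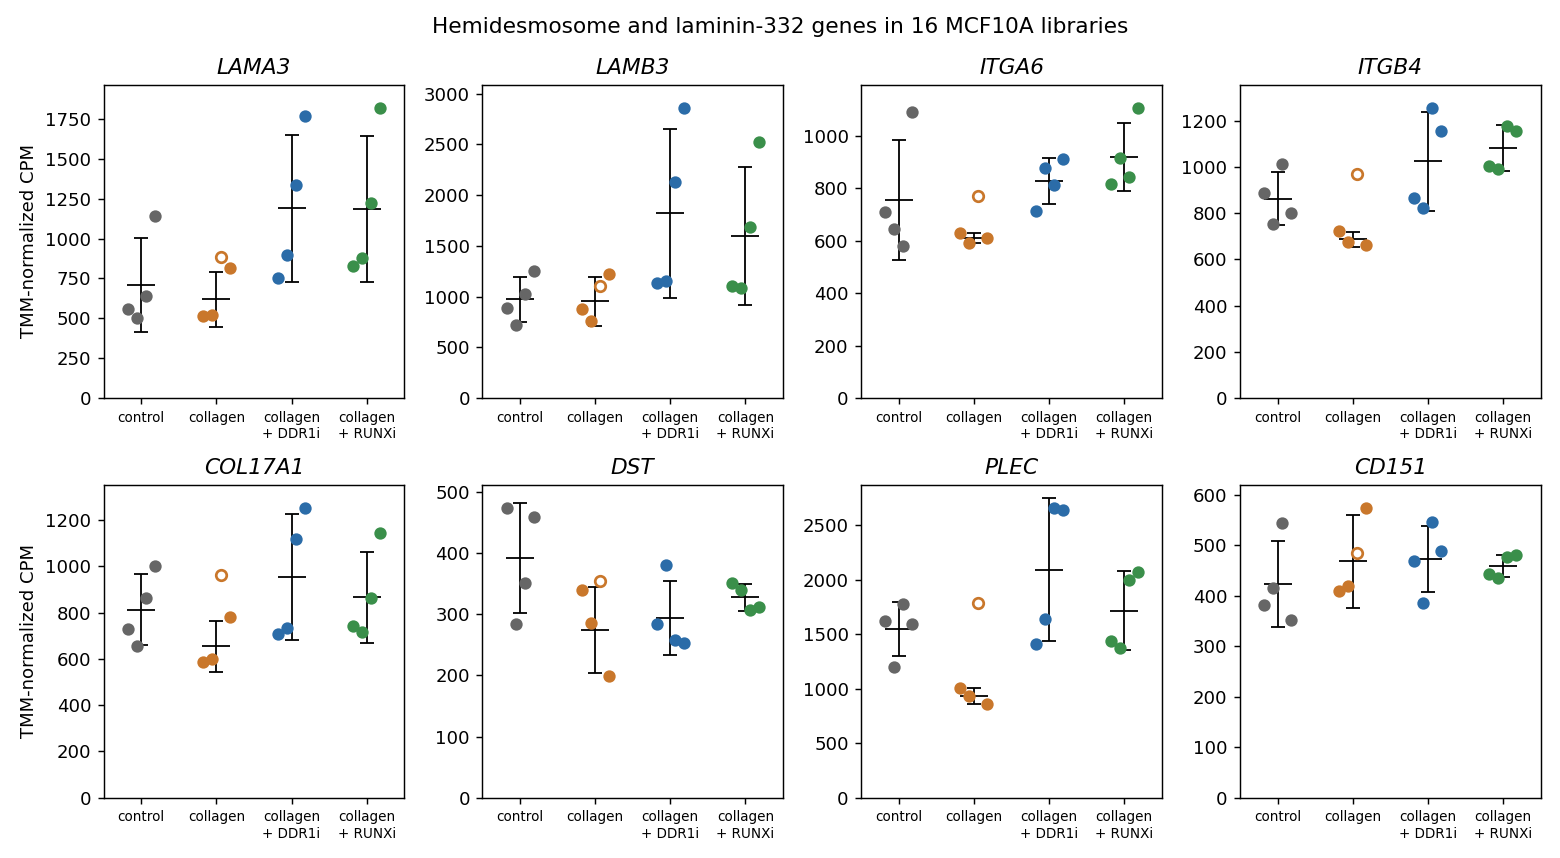
TMM-normalized CPM of the 8 genes (vertical axes, each from 0) in the 4 groups, with 1 point per library in the order of replicates 1 to 4. Horizontal marks and bars are mean ± SD, and the open circle is collagen replicate 3, left out of the mean and of the main fits; it lies above the other collagen libraries for *PLEC*, *ITGB4*, *ITGA6*, *COL17A1*, *LAMA3* and *DST*.

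Collagen replicate 3 was removed by the study as an outlier in a principal component analysis, and tests against collagen alone were made without it, with values that include it given beside those of the 8 genes. A gene was called when its p from edgeR's quasi-likelihood test, adjusted over all tested genes by the Benjamini-Hochberg method, was under 0.05. Against collagen alone, *ITGA6*, *ITGB4* and *PLEC*, encoding both integrin subunits and plectin, were higher with DDR1i, by 1.36-, 1.49- and 2.24-fold. These 3 of 8 genes stand against 2.47% of the 13548 genes tested in this comparison that were called (1.69% higher with DDR1i). With RUNXi, *ITGA6*, *ITGB4* and *PLEC* were higher by 1.51-, 1.58- and 1.84-fold, 3 of 8 genes against 4.05% of all tested genes (2.59% higher with RUNXi). These 3 genes have long transcripts. In the longest of 5 length classes (described further on), 6.54% of genes were called with DDR1i and 9.77% with RUNXi. All 4 libraries of an inhibitor lay beyond the 3 collagen libraries for 3 of 8 genes with DDR1i and 4 of 8 with RUNXi, against 15.1% and 18.2% of all tested genes. Both comparisons use the same 3 collagen libraries and are therefore not separate evidence. None of these calls remained with collagen replicate 3 included, where 9 of all genes were called with DDR1i and 60 with RUNXi.

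The log2 fold change was above 0 for 8 of 8 genes with DDR1i, with a median of 0.56, against 50.3% of all tested genes and a median of 0.004. It was above 0 for 7 of 8 with RUNXi, with a median of 0.62, against 50.5% of all tested genes and a median of 0.005. The 8 genes except *CD151* fall in the 2 longest of 5 length classes. Medians of those classes were 0.26 and 0.12 with DDR1i and 0.27 and 0.13 with RUNXi. With collagen replicate 3 included, *DST* and *CD151* were at -0.009 and -0.005 with DDR1i, and with the trend with transcript length removed (described further on) *DST* was at -0.41, so that 8 of 8 does not hold under these settings. Fold changes with their intervals are plotted for the 6 comparisons.

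**Figure D2:**
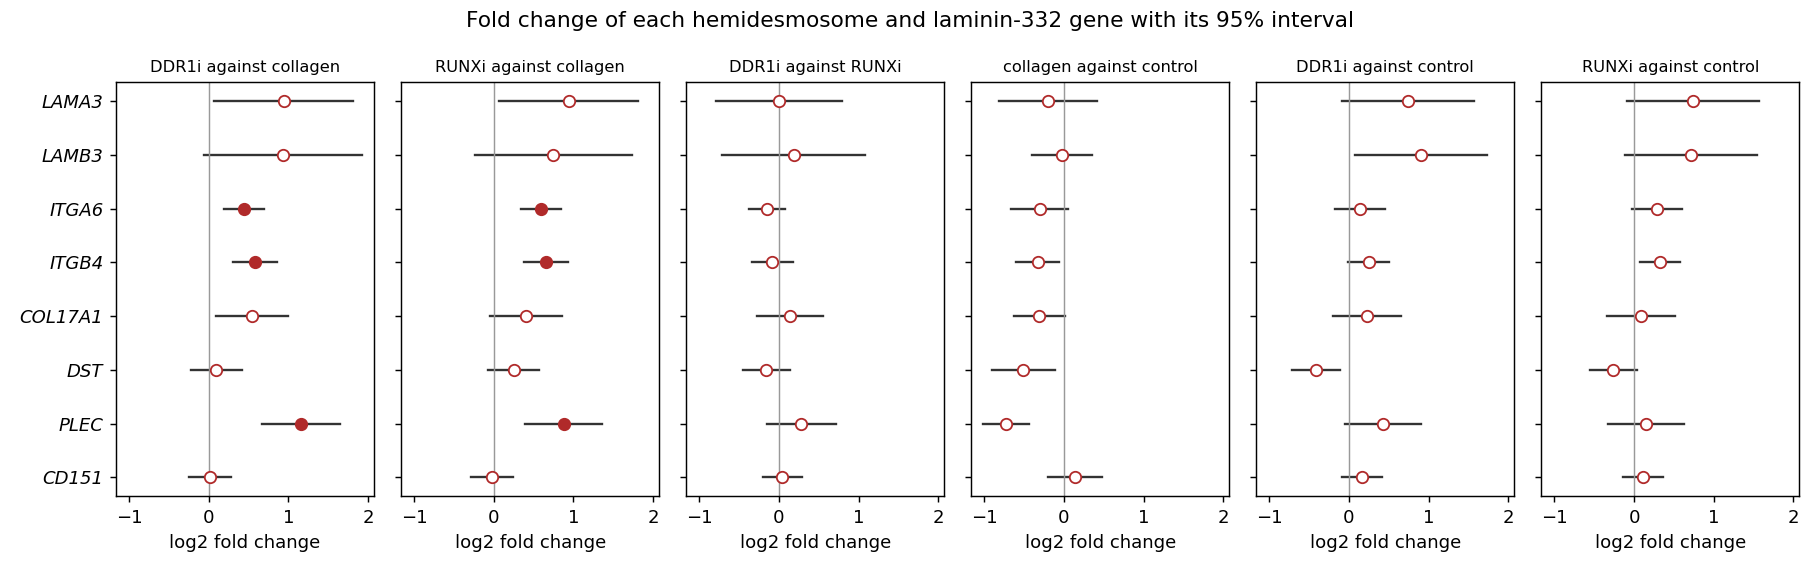
Log2 fold change (horizontal axes) of the 8 genes in 6 comparisons, with 95% confidence intervals as lines and filled points for an adjusted p under 0.05 in edgeR's test. Filled points are found for *ITGA6*, *ITGB4* and *PLEC* in both comparisons with collagen alone, and in no other panel.

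The ligand genes had the widest spread of the 8, with a coefficient of variation over the 16 libraries of 46.9% for *LAMB3* and 44.1% for *LAMA3*. *LAMB3*, encoding the β3 chain, had 880.1, 759, 1108 and 1218 CPM in collagen replicates 1 to 4. It had 1137, 1156, 2128 and 2856 CPM in DDR1i replicates 1 to 4, and 1101, 1079, 1688 and 2527 CPM in RUNXi replicates 1 to 4. In both inhibitor groups replicates 3 and 4 were far above replicates 1 and 2, and the lower ones lay within the range of the collagen libraries. Controls had 890.4, 718, 1024 and 1251 CPM, a range close to that with collagen alone. The log2 fold change against collagen alone was 0.93 with DDR1i (95% confidence interval -0.06 to 1.93, adjusted p = 0.311, edgeR) and 0.75 with RUNXi (-0.24 to 1.74, adjusted p = 0.374, edgeR), neither called. With collagen replicate 3 included it was 0.87 and 0.68 (adjusted p = 0.536 and 0.476, edgeR).

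*LAMA3*, encoding the α3 chain, had 516, 523, 886 and 817 CPM with collagen alone, 751, 899.8, 1336 and 1770.0 with DDR1i and 825, 879, 1222 and 1818 with RUNXi. Controls had 559, 499, 643 and 1144 CPM, so that replicate 4 was the highest library of 3 of the 4 groups. All 4 RUNXi libraries lay above collagen replicates 1, 2 and 4, whereas DDR1i replicate 1 lay below collagen replicate 4. A log2 fold change of 0.94 was found with both DDR1i (SE 0.38, adjusted p = 0.240, edgeR) and RUNXi (SE 0.38, adjusted p = 0.206, edgeR), which did not pass the test, and 0.79 and 0.78 with collagen replicate 3 included (adjusted p = 0.536 and 0.370, edgeR). The laminin chains were the most alike of the 28 pairs among the 8 genes: over the 16 libraries, log2 CPM of *LAMA3* and *LAMB3* gave Pearson's r of 0.957 and Spearman's rho of 0.935, where libraries share their groups and replicate numbers. The ratio of *LAMB3* to *LAMA3* CPM ranged from 1.09 to 1.70.

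The integrin genes had the narrowest spread in collagen replicates 1, 2 and 4, with a coefficient of variation of 3.15% for *ITGA6* and 4.89% for *ITGB4*. *ITGB4*, encoding the β4 subunit that is found only in α6β4, had 725, 674 and 661 CPM in collagen replicates 1, 2 and 4 and 970.0 in replicate 3. It had 864, 822, 1255 and 1155 CPM with DDR1i and 1005, 990.4, 1179 and 1158 CPM with RUNXi. Every inhibitor library was above the 3 collagen libraries tested, and all RUNXi libraries were above collagen replicate 3 as well. *ITGB4* had a log2 fold change of 0.58 with DDR1i (SE 0.13, adjusted p = 0.0226, edgeR) and 0.66 with RUNXi (SE 0.13, adjusted p = 0.0107, edgeR). With collagen replicate 3 included, it was 0.43 (adjusted p = 0.454, edgeR) and 0.51 (adjusted p = 0.152, edgeR). Controls had 886, 752, 1015 and 799 CPM, above the 3 collagen libraries and overlapping the DDR1i libraries.

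*ITGA6* encodes the α6 subunit, which pairs with β4 in hemidesmosomes and with β1 elsewhere. It had 630.4, 592 and 609 CPM in collagen replicates 1, 2 and 4, and 771 in replicate 3. It had 714, 879, 812 and 913 CPM with DDR1i and 815, 915, 842 and 1105 with RUNXi. As for *ITGB4*, every inhibitor library was above the 3 tested collagen libraries and every RUNXi library above collagen replicate 3. *ITGA6* had a log2 fold change of 0.44 with DDR1i (SE 0.12, adjusted p = 0.0471, edgeR) and 0.59 with RUNXi (SE 0.12, adjusted p = 0.0106, edgeR), and 0.34 (adjusted p = 0.457, edgeR) and 0.49 (adjusted p = 0.0775, edgeR) with collagen replicate 3 included. Controls ranged from 580.3 CPM in replicate 3 to 1089 in replicate 4, across nearly the whole range of the other groups. The ratio of *ITGB4* to *ITGA6* CPM was 0.734 to 1.75 in the controls and 1.05 to 1.40 with RUNXi.

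*PLEC*, encoding plectin, which links the β4 tail to keratin filaments, had the highest log2 fold change of the 8 with DDR1i, while with RUNXi that of *LAMA3* was higher. *PLEC* had 1007, 936 and 859 CPM in collagen replicates 1, 2 and 4, and 1786 in replicate 3. It had 1412, 1640.5, 2657 and 2642 CPM with DDR1i and 1433, 1369, 1996 and 2067 CPM with RUNXi. All inhibitor libraries lay above the 3 collagen libraries tested, while collagen replicate 3 lay above DDR1i replicates 1 and 2 and RUNXi replicates 1 and 2. On the log2 scale the fold change of *PLEC* was 1.16 with DDR1i (SE 0.23, adjusted p = 0.0195, edgeR) and 0.88 with RUNXi (SE 0.22, adjusted p = 0.0451, edgeR). Including collagen replicate 3 gave 0.86 (adjusted p = 0.454, edgeR) and 0.57 (adjusted p = 0.393, edgeR). Without collagen replicate 4, the lowest *PLEC* library, no gene of the 8 was called with DDR1i, and the adjusted p of *PLEC* was 0.201 (edgeR).

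*DST* encodes the other hemidesmosomal plakin, BPAG1, besides long isoforms used elsewhere. It had 339, 286, 354 and 199.9 CPM with collagen alone, 284, 381, 257 and 253 with DDR1i, and 352, 340.1, 307 and 312 with RUNXi. The groups overlapped, and the log2 fold change was 0.09 with DDR1i (95% confidence interval -0.22 to 0.41) and 0.25 with RUNXi (-0.07 to 0.57), or -0.009 and 0.14 with collagen replicate 3 included. *DST* and *PLEC* thus did not run in parallel: the ratio of *PLEC* to *DST* CPM was 2.97 to 5.04 with collagen alone and 4.30 to 10.5 with DDR1i, and the Pearson correlation of their log2 CPM was 0.127 over 16 libraries.

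In the membrane, *COL17A1*, encoding collagen XVII (BP180), had 585, 598, 961 and 781 CPM with collagen alone, 709.8, 734, 1118 and 1253 with DDR1i and 742, 715, 861 and 1143 with RUNXi. Its groups overlapped through collagen replicate 4, and its log2 fold change was 0.54 with DDR1i (SE 0.21, adjusted p = 0.188, edgeR) and 0.40 with RUNXi (SE 0.21, adjusted p = 0.294, edgeR), or 0.38 and 0.23 with collagen replicate 3 included. *CD151*, the tetraspanin, varied least (coefficient of variation 13.9%), from 351 CPM in control replicate 4 to 574 in collagen replicate 4. Its log2 fold change was 0.01 with DDR1i (95% confidence interval -0.25 to 0.28) and -0.03 with RUNXi (-0.29 to 0.24), so that changes within these bounds are not excluded. With collagen replicate 3 included, *CD151* was at -0.005 and -0.05.

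The inhibitors were set against each other at their own doses, 2 µM and 5 µM, for the same 48 h. None of the 8 genes was called, against 0.568% of all tested genes, and the libraries of the groups overlapped for each of the 8, against 4.49% of all tested genes where they did not. At an unadjusted p under 0.05 in edgeR 0 of 8 passed, against 839 of all tested genes. DESeq2 called 0 of the 8, against 134 of all genes. DDR1i against RUNXi gave log2 fold changes between -0.16 for *DST* and 0.28 for *PLEC*. The 95% confidence interval was -0.38 to 0.08 for *ITGA6*, -0.33 to 0.17 for *ITGB4* and -0.15 to 0.72 for *PLEC*. For the laminin chains it was wide, -0.78 to 0.79 for *LAMA3* and -0.71 to 1.09 for *LAMB3*, so that differences within these bounds are not excluded.

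Collagen alone against the control asks what collagen itself did. No gene was called by edgeR, among the 8 or among all 13092 tested (0%). At an unadjusted p under 0.05, 3 of the 8 (*PLEC*, *ITGB4* and *DST*) and 1754 of all genes passed, and DESeq2 called 415 genes, of which 1 was among the 8 (*PLEC*, adjusted p = 0.000101). The log2 fold change was below 0 for 7 of 8 genes, with a median of -0.31 against 0.009 for all tested genes. In the 2 longest of 5 length classes (described further on), which hold the 8 genes except *CD151*, medians were -0.28 and -0.14. At or above *PLEC*, *ITGB4* and *DST* were 88.1%, 55.6% and 73% of the genes of the longest class. The groups did not overlap for 2 of 8 genes, *PLEC* and *ITGB4*, against 13.5% of all tested genes. *PLEC* had 1624, 1199, 1775 and 1589 CPM in control replicates 1 to 4, all above collagen replicates 1, 2 and 4 and all below collagen replicate 3 at 1786. Its log2 fold change was -0.73 (SE 0.14, adjusted p = 0.107, edgeR), and -0.43 (adjusted p = 0.803, edgeR) with collagen replicate 3 included. *ITGB4* changed by -0.33 (adjusted p = 0.267, edgeR) and *DST*, with 474, 285, 352 and 458 CPM in the controls, by -0.51 (adjusted p = 0.251, edgeR).

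Against the control, cells with collagen and an inhibitor differ by both agents. None of the 8 genes was called with DDR1i (0.212% of all 13213 tested genes were) or with RUNXi (0.401%). DESeq2 called 0 of the 8 in each, against 65 and 107 of all genes. The groups overlapped for each of the 8 in both comparisons, while 3.31% and 4.21% of all tested genes had groups apart. At an unadjusted p under 0.05, 2 passed with DDR1i (*LAMB3* and *DST*) and 1 with RUNXi (*ITGB4*). Of all 13213 tested genes, 678 and 900 passed. *LAMB3* had the highest log2 fold change with DDR1i, 0.90 (95% confidence interval 0.07 to 1.74, adjusted p = 0.912, edgeR), and *LAMA3* with RUNXi, 0.74 (-0.09 to 1.56, adjusted p = 0.789, edgeR). The values of *PLEC* were 0.43 and 0.15, and those of *ITGA6* 0.13 and 0.28. The median of the 8 was 0.24 with DDR1i and 0.22 with RUNXi, against 0.01 and 0.002 for all tested genes. *DST* was the 1 gene below 0, at -0.42 with DDR1i and -0.26 with RUNXi. The fold changes of *PLEC*, *ITGA6* and *ITGB4* were thus smaller against the control than against collagen alone, and this difference was not tested.

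Transcript length moved with these fold changes. In the comparison with collagen alone, the median log2 fold change of all tested genes climbed from -0.21 in the class with the shortest transcripts to 0.26 in the class with the longest (DDR1i), among 5 classes of nearly equal size, and from -0.24 to 0.27 (RUNXi). For collagen against the control it ran the other way, from 0.27 to -0.28, and for each inhibitor against the control it stayed between -0.03 and 0.05. By library, the mean deviation of log2 CPM in the longest class minus that in the shortest was -0.16, -0.20 and -0.72 in collagen replicates 1, 2 and 4, against 0.11 in replicate 3, 0.10 to 0.26 in the controls, -0.23 to 0.23 with DDR1i and 0.02 to 0.08 with RUNXi. Most hemidesmosome genes are long: *PLEC* (14804 bases), *LAMA3*, *DST*, *ITGB4* (5896) and *ITGA6* (5816) were in the longest class, *COL17A1* (5612) and *LAMB3* (4014) in the next, and *CD151* (1545) in the shortest. These lengths are of canonical transcripts. The shortest coding transcripts of *LAMA3* (5007 bases) and *ITGB4* (5554) would fall in the next class, and that of *DST* (8971) in the longest. That of *ITGA6* (3544) would fall in the middle class. Class shares and values corrected for length rest on this choice for these genes, including the call of *ITGA6* with RUNXi given below.

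**Figure D3:**
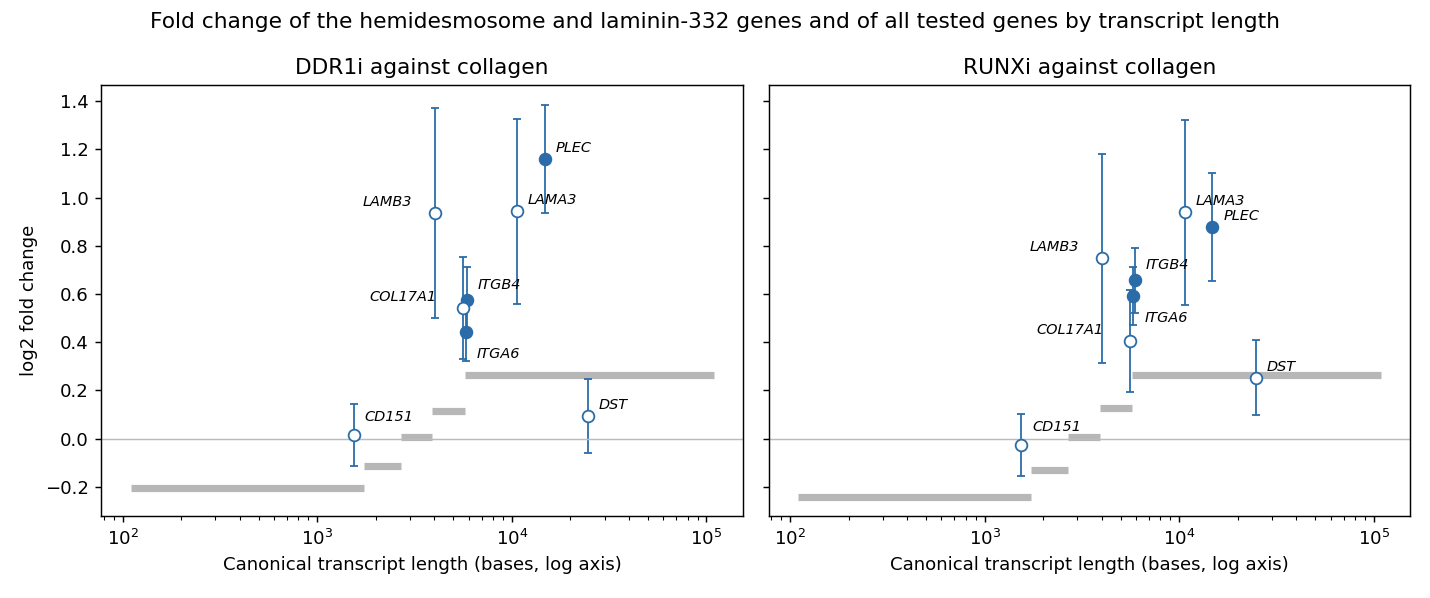
Log2 fold change against collagen alone (vertical axes) by length of the canonical transcript (log axis), for the 8 genes (points with SE, filled for an adjusted p under 0.05) and as the median of all tested genes in 5 length classes (grey bars). Medians climb from -0.21 to 0.26 with DDR1i and from -0.24 to 0.27 with RUNXi, and *PLEC*, *LAMA3* and *LAMB3* lie well above the bar of their class while *DST* lies at or below it.

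Within its length class, *PLEC* was still among the higher genes: 4.15% of genes of the longest class had an equal or higher log2 fold change with DDR1i and 8.35% with RUNXi. The shares were 31.2% and 19.8% for *ITGA6* and 20.5% and 15.5% for *ITGB4*. For *LAMB3*, they were 3.50% and 6.96% of the class of next longest genes. Once each library had been corrected for the length trend, which would take out any true response tied to length too, *ITGA6* with RUNXi was the 1 call left (log2 fold change 0.40, adjusted p = 0.0466, edgeR). *PLEC* then had 0.73 with DDR1i (adjusted p = 0.148, edgeR) and 0.51 with RUNXi (adjusted p = 0.304, edgeR), and *ITGB4* 0.37 and 0.47 (adjusted p = 0.185 and 0.0776, edgeR). The part of transcript length in these differences was otherwise not tested.

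How the 8 genes moved among themselves is given as a description over the 16 libraries. After the laminin chains, *ITGB4* and *PLEC*, whose products bind each other, were closest, with Pearson's r of 0.906 and Spearman's rho of 0.874 on log2 CPM. *COL17A1* followed *LAMA3* (0.888 and 0.850). *DST* and *CD151* were the most opposed pair, at -0.731 and -0.626. The highest library was DDR1i replicate 4 for *LAMB3* and *COL17A1*, RUNXi replicate 4 for *LAMA3* and *ITGA6*, and DDR1i replicate 3 for *ITGB4* and *PLEC*. Among the 13615 genes ranked, the 5 outside the 8 whose log2 CPM followed the mean of the 8 scaled profiles most closely were *REXO1* (Pearson correlation 0.939), *RRBP1* (0.937), *PLXNA2* (0.927), *PLEKHG3* (0.924) and *MYH9* (0.923). Their transcripts have 4609 to 11508 bases, and the libraries share their depth, groups and length trend.

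The wider set of 42 related genes covered other laminin chains, other laminin receptors, basement membrane components, plakins and linkers, tetraspanins, the plaque keratins and enzymes that process laminin-332. Against collagen alone, 38 were tested. With DDR1i, 6 were higher and 1 lower, 7 in all, against 2.47% of all tested genes, with a median log2 fold change of 0.38 against 0.004 for all tested genes. With RUNXi, 7 were higher and 0 lower, against 4.05% of all tested genes, with a median of 0.32 against 0.005. With the length trend removed, 3 of the related genes were called with DDR1i (*COL4A1*, *COL4A2* and *KRT14*) and 0 with RUNXi. All genes called then numbered 163 and 203. With all 4 groups in 1 fit 4 were called with DDR1i and 7 with RUNXi, against 233 and 395 of all genes. Fold changes of the related genes are plotted by class.

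**Figure D4:**
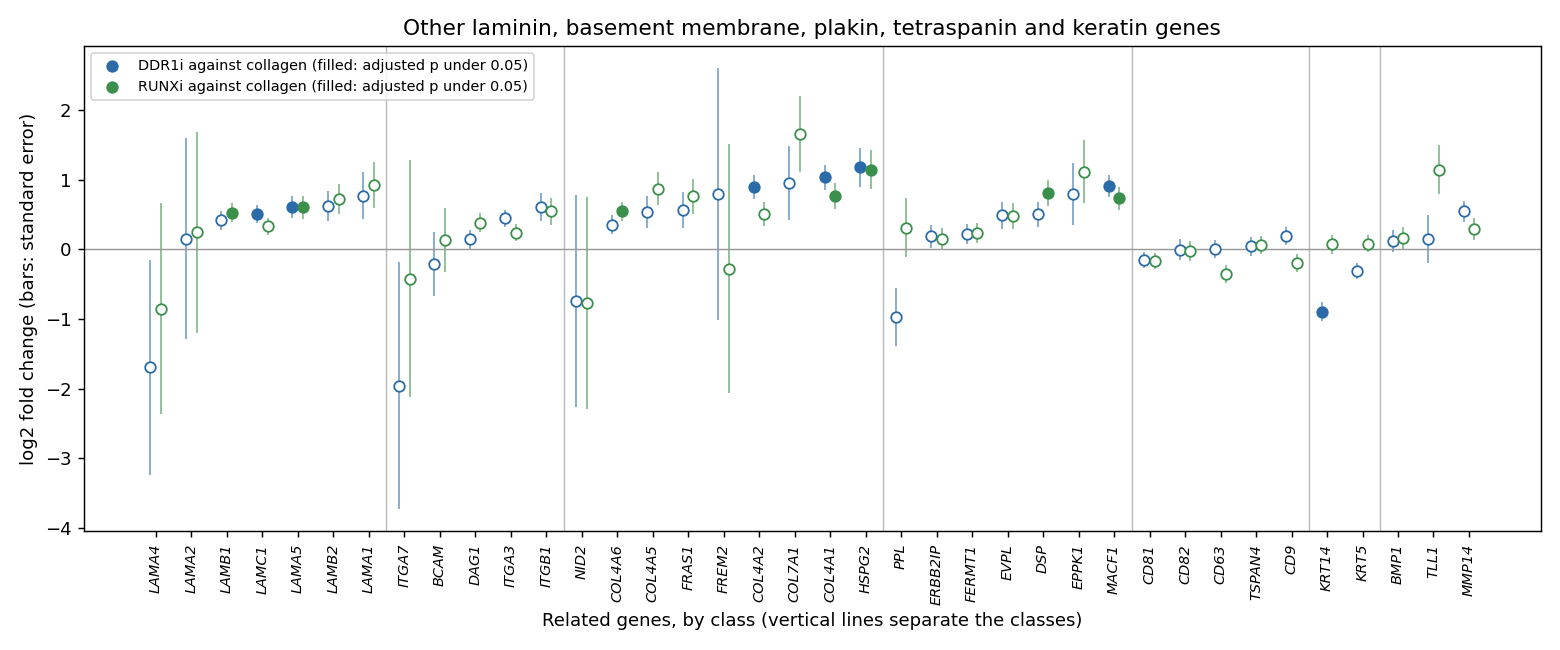
Log2 fold change against collagen alone (vertical axis, bars are SE) of 38 related genes in 7 classes, for DDR1i (blue) and RUNXi (green), filled where the adjusted p was under 0.05 in edgeR's test. *KRT14* is the 1 filled point below 0, with DDR1i, and the filled points above 0 belong to laminin chains, basement membrane genes and plakins.

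Of the 7 other laminin chains tested, 2 were higher with each inhibitor. *LAMA5*, the α5 chain of laminin-511, had 435 ± 90.1 CPM with DDR1i and 432 ± 47.4 with RUNXi (mean ± SD, n = 4 each), against 285 ± 64.8 (n = 3) in the collagen group. Collagen replicate 3, left out there, had 480 CPM, above both inhibitor means. No call of this class remained with that library included. *LAMC1*, the γ1 chain shared by most laminins, was higher with DDR1i (log2 fold change 0.51, adjusted p = 0.0331, edgeR), and *LAMB1*, the β1 chain, with RUNXi (0.53, adjusted p = 0.0325, edgeR). In the direct comparison of DDR1i with RUNXi neither was called, with log2 fold changes of 0.18 for *LAMC1* (95% confidence interval -0.06 to 0.42) and -0.11 for *LAMB1* (-0.37 to 0.15).

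Among basement membrane genes, 3 of 9 were higher with each inhibitor. *HSPG2*, encoding the proteoglycan perlecan, rose by 1.18 on the log2 scale with DDR1i (adjusted p = 0.0428, edgeR) and by 1.14 with RUNXi (adjusted p = 0.0388, edgeR). *COL4A1*, which encodes a chain of the type IV collagen network, rose from 56.3 ± 11.5 CPM (SD, n = 3) to 115 ± 34.5 with DDR1i and 95.5 ± 9.96 with RUNXi (SD, n = 4 each). Collagen replicate 3, left out there, had 145 CPM of *COL4A1*, above every RUNXi library and the DDR1i mean. It had 73.7 CPM of *HSPG2*, against means of 70.0 with DDR1i and 68.3 with RUNXi. No call of this class remained with that library included. *COL4A2*, the partner of *COL4A1*, was called with DDR1i (log2 fold change 0.90, adjusted p = 0.0104, edgeR) and *COL4A6* with RUNXi (0.54, adjusted p = 0.0261, edgeR). *COL7A1*, the anchoring fibril collagen that laminin-332 binds, had the highest log2 fold change of the related genes with RUNXi, 1.66 (95% confidence interval 0.42 to 2.90), but did not pass the test (adjusted p = 0.128, edgeR). It had 106, 87.6, 221 and 177 CPM in the RUNXi libraries, all above collagen replicates 1, 2 and 4 at 48.6, 51.6 and 40.1, while collagen replicate 3 had 132. DESeq2 called 3 genes of the class with DDR1i and 7 with RUNXi, against 824 and 1144 of all genes. With the trend with length removed, *COL4A1* and *COL4A2* had an adjusted p of 0.0262 and 0.0431 with DDR1i (edgeR), and the other calls of the class were lost.

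The plakin *MACF1*, a linker of actin and microtubules, was higher with DDR1i (log2 fold change 0.91, adjusted p = 0.00496, edgeR) and RUNXi (0.73, adjusted p = 0.0165, edgeR), and *DSP*, the plakin of desmosomes, with RUNXi (0.80, adjusted p = 0.0244, edgeR). None of the 5 laminin receptors, the 5 tetraspanins and the 3 tested processing enzymes was called by edgeR with either inhibitor. At an unadjusted p under 0.05, 2 receptors, 0 tetraspanins and 1 enzyme passed with DDR1i and 2, 1 and 1 with RUNXi. Of all 13548 tested genes, 2442 and 2853 passed. DESeq2 called 2, 0 and 1 with DDR1i and 1, 0 and 1 with RUNXi, against 824 and 1144 of all genes. With collagen replicate 3 included, the related genes called numbered 1 with DDR1i and 0 with RUNXi, against 9 and 60 of all genes.

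Against collagen alone, the 1 related gene called lower was *KRT14*, encoding a keratin that hemidesmosomes anchor in basal cells. It had 3396, 3317, 3361 and 4795 CPM in collagen replicates 1 to 4 and 2199.7, 1620.1, 2225 and 2197 with DDR1i, a lower level in every DDR1i library. With RUNXi it had 4267, 3907, 4224 and 3695 CPM. DDR1i gave a log2 fold change of -0.90 against collagen alone (adjusted p = 0.00123, edgeR), -0.97 against RUNXi (adjusted p = 6.8e-05, edgeR) and -0.79 against the control (adjusted p = 0.000616, edgeR). It was the 1 related gene called with collagen replicate 3 included (-0.86, adjusted p = 0.00768, edgeR) and was called in all 11 fits that each left out 1 library. *KRT5*, its partner in the keratin filament, moved the same way by less and was not called with DDR1i against collagen alone (-0.31, adjusted p = 0.153, edgeR). *KRT5* had 8936, 9027, 9275 and 11685.5 CPM in collagen replicates 1 to 4. With DDR1i it had 8599.9, 7084, 7564 and 8731 CPM, again lower in every DDR1i library. Against RUNXi it was at -0.39 with DDR1i (adjusted p = 0.153, edgeR). DESeq2 called 1 of these 2 keratins with DDR1i against collagen alone and 2 against RUNXi. The other related gene called lower in any comparison was *PPL*, encoding periplakin, a plakin of the cornified envelope. It had 43.8, 29.1, 27.5 and 14.7 CPM in the controls and 13.7, 10.4, 7.98 and 6.52 with DDR1i, with no overlap (log2 fold change -1.57, adjusted p = 0.0484, edgeR). This call was found in 3 of 12 fits that each left out 1 library and was lost with the length trend removed (-1.63, adjusted p = 0.0761, edgeR). Against collagen alone *PPL* was at -0.97 with DDR1i and was not called (adjusted p = 0.238, edgeR).

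How the calls of the 8 genes depended on the processing is shown by setting. When each library was left out in turn, *ITGA6* and *ITGB4* were called with RUNXi in 11 of 11 fits and *PLEC* in 6. With DDR1i, *PLEC* was called in 10 of 11 fits, *ITGB4* in 7 and *ITGA6* in 2. With all 4 groups in 1 fit, *ITGA6* with DDR1i was not called (adjusted p = 0.137, edgeR). *ITGA6* with RUNXi was thus the most stable call, and it was lost with collagen replicate 3 included (adjusted p = 0.0775, edgeR).

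**Figure D5:**
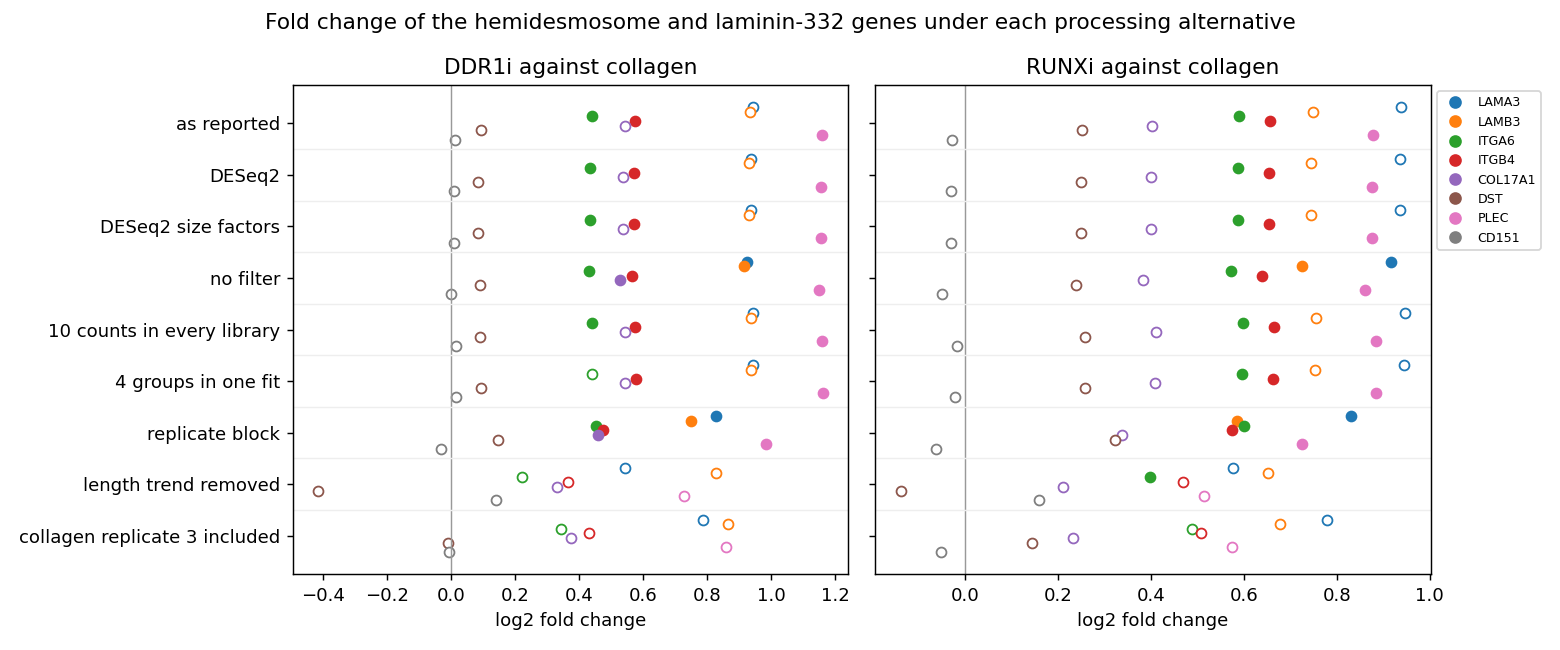
Log2 fold change against collagen alone (horizontal axes) of the 8 genes under the reported settings and 8 alternatives (rows), with filled points for an adjusted p under 0.05. The values of *ITGA6*, *ITGB4* and *PLEC* stay above 0 in each row, and their filled points are lost with collagen replicate 3 included and, except for *ITGA6* with RUNXi, with the length trend removed, and for *ITGA6* with DDR1i also with all 4 groups in 1 fit.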

How the data were processed

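RNA was sequenced from 16 MCF10A libraries (TruSeq kit, 150-bp paired-end reads, NovaSeq). The authors aligned reads to GRCh37 with STAR and deposited raw counts of reads per gene in each library, with no normalization or filter seen in the values. The counting tool, the annotation and the use of strand are not given in the sources used here. Groups and replicates came from the labels. Members and lists were chosen with earlier results of these data known.

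Counts were tested with the quasi-likelihood method of edgeR 4.0.16 (R 4.3.3), using TMM scaling, the filterByExpr filter and robust fitting. P-values were adjusted over all genes tested by the Benjamini-Hochberg method, with a threshold of 0.05. Inhibitors and collagen alone shared a fit of 11 libraries (13548 genes tested), collagen and control one of 7 (13092 genes) and inhibitors and control one of 12 (13213 genes), each without collagen replicate 3, which the study removed. The biological coefficient of variation was 0.287, 0.353 and 0.310. Confidence intervals are 95% intervals of the log2 fold change from the same fit. Levels are TMM-normalized CPM over all 16 libraries, and log2 CPM used a prior count of 2.

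Gene positions and transcript lengths were read from GENCODE on GRCh37, which matched 23935 of 26473 symbols (22606 directly and 1329 through older names). Splines (4 degrees of freedom) fitted per library took out the length trend. Promoter windows came from RefSeq (GRCh38.p14) and matched 5 of the 8 genes. No replicate pair agreed within sampling noise (lowest chi-square per degree of freedom 18.7). The test was first tested on simulated data with known changes.

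The genes named are the 8 members, the genes of the related list that were called in any comparison, *KRT5* from that list for comparison, and the 5 genes most like the members' mean profile. *COL7A1* was named after its values were seen. From the related list as first drawn up, 1 gene is not reported here. Alternatives were DESeq2 1.42.0, its size factors in edgeR, other filters, collagen replicate 3 included, all groups in 1 fit, a replicate block, control replicates 2 and 3 left out, the length trend removed and each library left out. Figures used matplotlib 3.10.9 and pandas 2.3.3 under Python 3.11.15.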

Additional observations from a re-analysis of the deposited data

Results flagged for a closer look

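In the collagen libraries, *PLEC* had 1786 CPM in replicate 3, far above the nearest library at 1007 CPM. This gap made up 0.841 of the range of the group, above Dixon's 95% critical value for 4 samples. Total counts of collagen replicate 1 were 17570707, below the nearest library at 26642600, a gap of 0.896 of the range. Of 36 groups of values examined in this way, 2 were past the critical value, and 2 are expected by chance.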

How the results depend on the processing

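Members called with DDR1i and with RUNXi against collagen alone numbered 3 and 3. They numbered 6 and 5 without a filter beyond 1 count, 0 and 0 with collagen replicate 3 included, 0 and 1 with the length trend removed, and 0 and 0 with both of these together, an alternative chosen after seeing the data. All genes called, 334 and 549 as reported, were 824 and 1144 with DESeq2, 755 and 1046 without the filter, 9 and 60 with collagen replicate 3, 163 and 203 without the length trend and 9 and 63 with both. Leaving out 1 library gave 0 to 3 members with DDR1i (0 without collagen replicate 4) and 2 to 3 with RUNXi, and 60 to 662 and 123 to 715 genes in all. Between collagen and control, where 0 members and 0 genes were called, DESeq2 called 1 member and 415 genes, the test without a filter 2 and 284, and all groups in 1 fit 0 and 313. Leaving out 1 library gave 0 members for collagen against control, DDR1i against RUNXi and DDR1i against control, and 0 to 1 for RUNXi against control (*ITGA6* without control replicate 4). The cause of these changes was not tested.

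Replicate numbers are shared between groups, but same-numbered libraries did not deviate together in every pair (correlation -0.088 to 0.271, over 0.1 in 9 of 24 pairs). Of the 4 replicate numbers, 12 of 16 libraries were closest to their own, more than a random match would give. This is a hint from the data and not from the design. With a replicate block, 6 members were called with DDR1i and 5 with RUNXi against collagen alone (537 and 759 genes in all). Those added were *LAMA3* (adjusted p = 0.000424 and 0.000183, edgeR), *LAMB3* (0.00305 and 0.0148) and, with DDR1i, *COL17A1* (0.0233), while *CD151* with DDR1i was at -0.03. Against the control, 2 were called with DDR1i and 2 with RUNXi (*LAMA3* and *LAMB3*; 116 and 162 genes in all).

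No called member or related gene changed direction under an alternative. Depth was not the limit for the 8 genes.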
